A study of Homo sapiens with 104 samples.

Results

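MGMT encodes the methyltransferase that removes methyl groups from guanine in DNA. It was measured by 1 probe set, the only one of the array annotated with MGMT as its single symbol, and it was 1 of 19775 genes with a measured level. The samples were human lymphoblastoid lines, which are lines of B lymphocytes grown in culture: 24 panel lines known by number, TK6, which is an established line, and MT1, which was derived from TK6. Cells in mid log phase were examined without treatment and after exposure to MNNG (N-methyl-N'-nitro-N-nitrosoguanidine, a methylating agent), with 2 arrays for each line and condition, which gave 52 groups. The series was set up to look for predictors of resistance to agents that damage DNA, and its labels give no dose, exposure time or killing of any line, so none enters a comparison. The labels name no transgene, deletion or second agent in any group. The labels do not say that duplicates came from separate cultures, so p-values from duplicates measure only the spread between these arrays, which may be technical.

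MGMT transfers the methyl group from the modified base to a cysteine of its own and is used up in doing so, so the amount of protein sets how many lesions a cell can reverse. A methylated guanine that escapes MGMT pairs with thymine in replication, and the mismatch repair proteins that recognise this pair start the signalling that arrests or kills the cell. Many cell lines make no MGMT, and in such lines the CpG-rich promoter is often methylated. TK6 is known as a line without MGMT activity, and MT1 as a derivative that in addition lacks functional mismatch repair and tolerates methylating agents.

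The promoter is printed because its CpG sites are where such silencing is known to occur. RefSeq places the 250 bases before the transcription start, in GRCh38.p14, at chr10:129466991-129467240 on the + strand, upstream of the first exon. Capitals mark each CpG.
MGMT promoter: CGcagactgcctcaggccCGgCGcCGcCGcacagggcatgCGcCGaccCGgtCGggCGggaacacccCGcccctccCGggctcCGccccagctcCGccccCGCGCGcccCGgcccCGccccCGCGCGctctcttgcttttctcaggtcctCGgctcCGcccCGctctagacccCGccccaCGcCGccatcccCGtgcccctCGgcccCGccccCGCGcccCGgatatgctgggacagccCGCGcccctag
This stretch held 36 CpG sites, against a median of 11 over 35116 promoters cut in the same way, of which 4.85% held at least 36. Its GC content was 80.4% (median 58%). The letters GGGCGG, a GC box, occurred 8 times counting both strands, where 42.6% of promoters held it at least once and 0.584% held it at least 8 times. Methylation of these sites was not measured by the arrays, and a match of letters is a description of the reference, not of these lines.

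Before any result, 22 of the 52 MNNG arrays were set aside because they read the spiked-in control transcript cre over 2 log2 units lower with 1 of its probe sets than with another. That left all 52 untreated and 30 MNNG arrays: 8 panel lines kept 2 MNNG arrays, 11 kept 1, and 5 (lines 6, 7, 8, 11 and 16) kept 0, so 19 panel lines enter comparisons with MNNG. MT1 kept 1 MNNG array and TK6 both. Median intensity per array was 16.0 to 64.4, on a scale with a floor at 16. Levels below are log2 of the intensity plus 16 after quantile normalisation, so the lower end of the scale is 5, and differences near it are understated. All 82 arrays matched best with another array of their own line over the 1500 most variable genes. In line 14, however, the arrays matched across the labels of treatment: untreated replicate 1 correlated with MNNG replicate 2 (r = 0.88) and untreated replicate 2 with MNNG replicate 1 (r = 0.94), whereas the other 4 pairs gave 0.74 to 0.81, across genes, which are not independent replicates. The panel change and the slopes are therefore also given without line 14, and the test of equal response with its change left out. Of the B cell markers 6 of 7 were measured, with a mean level per array of 8.95 to 11.1 untreated and 9.00 to 10.9 after MNNG. The 5 T and NK cell markers averaged 5.47 to 6.45 untreated, the 4 myeloid markers 5.61 to 6.91 and the 5 fibroblast and epithelial markers 5.61 to 6.83, and CD3G, EPCAM and KRT19 lay below 6 in all 82 arrays, although NKG7 reached 9.09 and CDH1 10.1. COL1A1 lay above 6 in every array (median 6.99), and LYZ had a median of 7.64 with 14 arrays below 6. The part of these other markers in the MGMT levels was not tested. Since these are bulk samples, fewer cells with MGMT and less MGMT RNA per cell cannot be told apart.

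Untreated MGMT differed widely between lines. TK6, MT1 and lines 4 and 6 lay at the lower end of the scale, a few lines held intermediate levels, and most of the panel lay close together at a high level. Of the 24 panel lines, 4 had a mean below 6, 3 lay from 6 to 7 and 17 lay above 7. The panel averaged 7.21 ± 0.94 (SD over 24 lines), with a median of 7.56.

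At the lower end, the deposited MGMT intensities of the duplicates were 16.0 and 16.0 in TK6. They were 19.1 and 16.0 in MT1, 20.1 and 16.8 in line 6, and 26.2 and 16.5 in line 4. All 4 lines had at least 1 array within a single intensity unit of the floor, and their means spanned only 5.12 to 5.27 on the log2 scale. None of these arrays overlapped those of any other line, and the next line in order, line 11, lay 0.58 above MT1, beyond the 95% interval of that difference.

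The intermediate lines formed steps. Lines 11 (49.1 and 55.4) and 9 (58.6 and 48.9) were the lowest of them, with log2 means of 5.84 and 5.90. Lines 18 (73.8 and 77.4) and 19 (79.1 and 97.4) came next, at 6.25 and 6.41, followed by line 20 (96.8 and 99.8) at 6.77. Their levels stood apart from both the floor and the main body of the panel.

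The 17 lines above 7 began with line 7 (intensities 151.5 and 148.3, log2 mean 7.27) and line 17 (159.8 and 167.8, mean 7.39). Most then lay within a narrow band from line 1 at 7.53 to line 21 at 8.07, where line 21 had intensities of 266.4 and 231.1. Line 16 was the highest, with 377.3 and 297.0 and a mean of 8.48. Line 14, at a mean of 7.69, was the only one of these lines whose duplicates differed more than 2-fold in intensity, 260.1 against 87.5.

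In the order of all 26 lines, 5 of the 25 pairs of neighbours differed beyond the 95% interval of their difference. They were MT1 and line 11 (0.58), lines 9 and 18 (0.35), lines 19 and 20 (0.36), lines 20 and 7 (0.50), and lines 21 and 16 (0.41). In the other 20 pairs the interval held 0, so the order within the lower end and within the band above 7 is not settled by these arrays.

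The spread between lines exceeded that between duplicates. The duplicates of an untreated panel line had a median SD of 0.056, and their largest gap was 0.54 (line 14). The residual SD of MGMT in the model was 0.17. It is shared by all lines and includes the line 14 MNNG duplicates, which differed by 1.13, the widest gap of any group. Every interval and call for neighbours, single lines, TK6 and MT1 rests on it. The panel lines spanned 3.36 log2 units from line 6 to line 16, a 10.3-fold range that is a lower bound because line 6 lies near the floor. The difference between the 26 lines passed limma's moderated F test with Benjamini-Hochberg adjustment over 13842 genes (adjusted p = 6.60e-25), as did that between the 24 panel lines alone (adjusted p = 8.79e-23). Such differences were common, since 72.6% of all genes passed over the 26 lines. The size of the MGMT range was less common: 2.64% of genes (365) spanned more over the panel lines, and the median gene spanned 0.80.

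**Figure D1:**
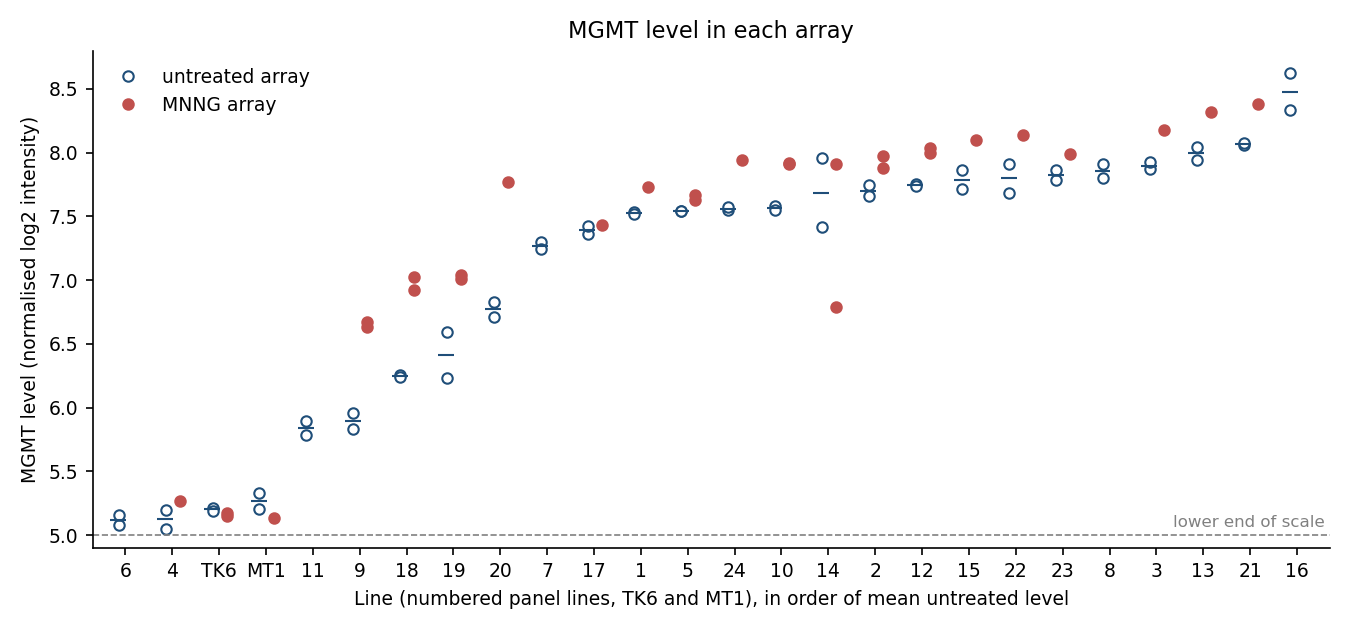
MGMT level of each kept array (log2 of intensity plus 16, quantile normalised) for the 26 lines in order of their untreated mean. Open circles are untreated arrays, short lines their mean and filled circles MNNG arrays, and the dashed line is the lower end of the scale. Lines 6 and 4, TK6 and MT1 lie at the lower end, 17 panel lines lie above 7, and the MNNG arrays of lines 9, 18, 19 and 20 lie clear above their untreated arrays. Over all genes, 36.8% of gene and line combinations had all MNNG arrays above the untreated ones.

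MGMT was modestly higher after MNNG in the panel. The mean change was 0.33 ± 0.062 on the log2 scale (SE, n = 19 lines, 95% interval 0.20 to 0.46), or 1.25-fold, and MGMT was higher in 18 lines and lower in 1, line 14. The paired limma test passed (Benjamini-Hochberg adjusted p = 0.000179), in a comparison in which 42.6% of all genes were called with 28.7% called higher and 13.8% lower. The median gene moved by 0.037, 2.17% of genes rose more than MGMT, and 7.93% were higher in at least as many lines. Without line 14 the change was 0.36 (adjusted p = 1.62e-05). When arrays were centred by their medians and not quantile normalised it was 0.19 (adjusted p = 0.0499), and with the 22 arrays that had been set aside included it turned to -0.45 (adjusted p = 0.0198). On the values as deposited the change was 0.35, where the median of all genes moved by 0.13.

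The largest changes were in the lines of intermediate level. In line 20, MGMT went from intensities of 96.8 and 99.8 to 202.2 in its 1 MNNG array, a log2 change of 1.00 ± 0.20 (SE, limma adjusted p = 0.000715). Here and in the other 10 panel lines with 1 MNNG array, that array was assumed to vary like the other groups. In line 9 it went from 58.6 and 48.9 to 102.5 and 104.2, a change of 0.75 ± 0.17 (limma adjusted p = 0.00294). In both lines all MNNG arrays lay above all untreated arrays, but so they did for 5978 of 13842 genes in line 20 and 5511 in line 9.

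Line 18 went from 73.8 and 77.4 to 144.5 and 93.9, a change of 0.73 ± 0.17 (limma adjusted p = 0.00569). Line 19 went from 79.1 and 97.4 to 127.2 and 121.6, a change of 0.61 ± 0.17 (limma adjusted p = 0.0213). The MNNG duplicates of line 18 correlated at 0.61 across genes, the lowest of any pair of duplicates, yet their normalised MGMT levels, 6.93 and 7.02, were close. These 4 lines were the only ones called higher when tested singly; over all genes and the 19 lines, 2.14% of such single-line tests were called higher. That share was larger in these lines, 8.97% in line 20, 5.20% in line 19, 4.15% in line 9 and 3.11% in line 18. Measured against either untreated duplicate alone, their changes ran from 0.43 to 1.06.

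Among the 14 lines above 7 the changes were smaller. They ran from 0.039 in line 17 to 0.38 in line 24, leaving out line 14, and none was called. The residual SD behind these calls is shared by all lines and includes the line 14 arrays, so it does not measure the noise of these lines alone. Few genes of any kind were called higher in some of these lines, 0 of 13842 in line 13, 4 in line 2 and 6 in line 3, and the most, 478 (3.45%), in line 23. In line 10 the intensities went from 187.8 and 183.6 to 263.9 and 256.2, a change of 0.35 whose 95% interval lay above 0 but whose limma adjusted p was 0.502. In line 17 the 1 MNNG array had an intensity of 112.7, below the untreated 159.8 and 167.8. The median of that array was at the floor, and normalised MGMT there was level with the untreated arrays. On the deposited intensities MGMT was higher after MNNG in 16 of 19 lines, with ratios from 0.688 to 2.06.

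Line 14 stood against the others. Its untreated arrays gave 260.1 and 87.5 and its MNNG arrays 41.4 and 220.4, so that the groups overlapped, and the mean change was -0.34. The low untreated and the low MNNG array were those that resembled each other over the 1500 genes, and both had a median intensity at the floor. Whether these arrays carry the right labels was not tested. In the other 18 lines all MNNG arrays lay above the untreated ones on the normalised scale, a pattern found in 36.8% of gene and line combinations.

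Whether the size of the change differed between lines depended on the setting. The line changes ranged from -0.34 to 1.00 (median 0.31, SD 0.29). Limma's F test of equal response gave an adjusted p of 0.0693, with 6.13% of all genes called. With a pseudocount of 1 in place of 16 the adjusted p was 0.0481, and without the low untreated and low MNNG array of line 14 it was 9.44e-05, with changes spanning 1.04. With the response of line 14 left out of the F test the adjusted p was 0.347 and the span 0.96. With that of line 20 left out it was 0.207. In both, the arrays of the line left out still entered the residual spread, so 0.347 is not a result free of line 14. On the values as deposited the adjusted p was 0.923. The settings thus disagree, and these arrays do not settle whether the lines differed in their MGMT response. The order of the lines was largely kept: lines 4, 9, 18 and 19 were the lowest 4 of 19 both before and after MNNG, and lines 3, 13 and 21 were the highest both times.

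**Figure D2:**
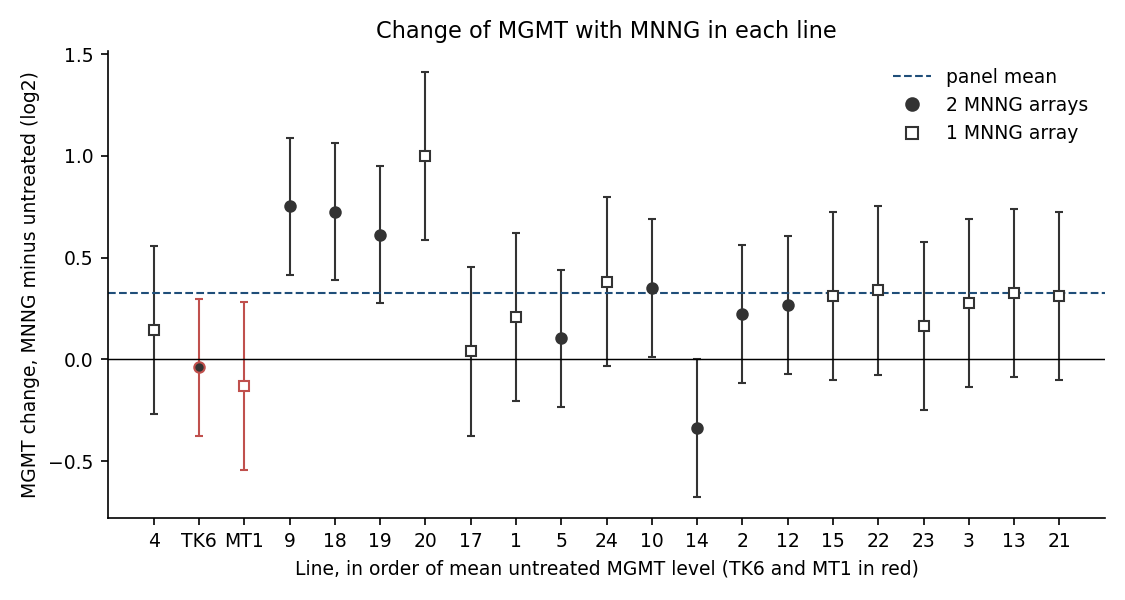
Change of MGMT with MNNG (MNNG minus untreated, log2) in 19 panel lines, TK6 and MT1, in order of the untreated level. Points are the change of each line, filled for 2 MNNG arrays and open for 1. Bars are 95% intervals of the limma fit, from a spread shared by all lines that includes the line 14 arrays. The dashed line is the panel mean of 0.33. Lines 9, 18, 19 and 20 show changes of 0.61 to 1.00, line 14 is the only panel line below 0, and TK6 and MT1 lie near 0.

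No change of MGMT was detectable in the lines at the lower end of the scale. TK6 had intensities of 17.6 and 16.0 after MNNG, against 16.0 and 16.0 untreated, a difference of -0.040 ± 0.17 (SE, 95% interval -0.38 to 0.30, limma adjusted p = 0.885, 41.2% of all genes called). MT1 had 21.7 in its 1 kept MNNG array, against 19.1 and 16.0, a difference of -0.13 ± 0.20 (95% interval -0.54 to 0.28, limma adjusted p = 0.852, 3.56% called). The responses of TK6 and MT1 differed by 0.090 ± 0.26 (95% interval -0.44 to 0.62, limma adjusted p = 0.878, 24.7% called), and untreated MT1 and TK6 by 0.064 ± 0.17 (95% interval -0.27 to 0.40, limma adjusted p = 0.871, 25.2% called). In line 4 the 1 MNNG array gave 18.6, against 26.2 and 16.5, for a normalised change of 0.14. At the floor a fall cannot be measured, and the signs for TK6, MT1 and their difference turned on the values as deposited, to 0.036, 0.17 and -0.13.

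MGMT was then set beside 5 lists of genes that act with it or after it, 67 genes in all, of which 57 were measured and passed the filter on low levels. In the panel comparison 42.6% of all genes were called and the median change was 0.037.

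The other enzymes that remove methylation damage, by direct reversal (the ALKBH dioxygenases) or by base excision, showed small changes in both directions. Of 10 such genes, 6 were called higher and 1 lower, with a median change of 0.089. LIG3, the ligase that seals the repaired strand, rose by 0.27 ± 0.042 (SE, limma adjusted p = 1.89e-05), and POLB, the polymerase that fills the gap, by 0.21 ± 0.026 (limma adjusted p = 1.22e-06). FEN1, a flap nuclease, rose by 0.18 ± 0.044 (limma adjusted p = 0.00214), and the dioxygenases ALKBH3 and ALKBH2 by 0.11 and 0.099. PARP1, which binds the strand breaks formed on the way, fell by 0.28 ± 0.024 (limma adjusted p = 2.09e-08) and was higher in 0 of 19 lines. The MGMT change of 0.33 was the largest of these in size.

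Of the mismatch repair genes, which act on the lesion that MGMT leaves, 2 of 6 measured were called higher and 1 lower (median 0.049). PCNA, the sliding clamp, rose by 0.25 ± 0.041 (limma adjusted p = 3.29e-05) and the exonuclease EXO1 by 0.091 ± 0.028 (limma adjusted p = 0.0102). MSH6, a subunit of the complex that recognises the mismatch, fell by 0.21 ± 0.038 (limma adjusted p = 0.000102).

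Genes that write, read or erase DNA methylation had the median closest to 0: of 10 measured, 1 was called higher and 3 lower, with a median of -0.028. The methyl-CpG binding proteins MBD3 and MBD1 fell by 0.13 and 0.093, and MBD2 rose by 0.061. TET3, an eraser, fell by 0.11. In damage signalling, 3 of 8 were called higher and 1 lower (median 0.072): the single-strand binding subunit RPA2 rose by 0.21, the kinases CHEK1 and ATR by 0.17 and 0.10, and RPA1 fell by 0.17.

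The list of damage targets, genes known to be switched on by p53, had 15 of 23 called higher and 4 lower, with a median of 0.22. TIGAR, MDM2 and GADD45A rose by 0.48, 0.47 and 0.47, each in all 19 lines, whereas ZMAT3, BAX, PMAIP1 and CCNG1 fell by 0.55, 0.38, 0.13 and 0.12. CDKN1A, named here after its values were seen, rose by 0.28.

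TK6 and MT1, both with MGMT near the floor, differed most in the damage targets. In TK6 21 of 23 damage targets were called higher, with a median change of 1.66 (21.6% of all genes were called higher and 19.5% lower). TP53I3 rose by 4.71 and TP53INP1, a regulator of stress responses, by 3.21. CDKN1A, the cell cycle inhibitor p21, rose by 2.95 ± 0.082 (SE, limma adjusted p = 2.14e-28), and MDM2, the ligase that limits p53, by 2.95 ± 0.15 (limma adjusted p = 5.77e-20). In MT1 1 of 23 was called higher and 2 lower, with a median of 0.082 (2.36% of all genes were called higher and 1.21% lower). TIGAR rose by 0.41, ZMAT3 and PMAIP1 fell by 0.99 and 0.64, and the values for CDKN1A and MDM2 were 0.087 and 0.50, not called. The difference between the responses passed for 21 of 23 damage targets, all larger in TK6 (12.2% of all genes), among them CDKN1A (2.86 ± 0.13, limma adjusted p = 1.84e-20) and MDM2 (2.44 ± 0.23, limma adjusted p = 6.10e-11). MT1 had 1 MNNG array, which was assumed to vary like the other groups.

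In the repair lists, TK6 had 2 called higher and 1 lower of 10 for direct reversal and base excision, with FEN1 up by 1.07 and PARP1 down to -0.54. In mismatch repair 2 were called higher (PCNA 1.13, EXO1 0.66) and 2 lower (MLH3 -0.48, MSH6 -0.22) of 6. In damage signalling 5 of 8 were called higher, among them RPA1 at 0.90 and ATR at 0.85. In the methylation list 3 were called higher and 1 lower of 10, with UHRF1, which guides the maintenance methyltransferase, at 1.45 and DNMT3A, a methyltransferase, at 0.84. Over all genes 41.2% were called in TK6, which the shares of the methylation list (40%) and of direct reversal and base excision (30%) did not exceed. In MT1 FEN1 alone of these genes was called, at 0.47. By limma 0 genes of the mismatch repair, methylation and signalling lists were called there, where 3.56% of all genes were, and 1, 3 and 1 of them had an unadjusted p under 0.05. The difference between the responses passed for 3 of 10, 2 of 6, 3 of 10 and 3 of 8 genes of the direct reversal and base excision, mismatch repair, methylation and signalling lists, beside 24.7% of all genes.

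The next comparison asked whether the response of other genes followed the untreated MGMT level across the panel. For each gene the change with MNNG in 19 lines was regressed on the untreated MGMT level in limma, with MGMT itself left out because its level and change share arrays. The slope is the change (log2) per log2 unit of MGMT, so a negative slope means a larger rise or a smaller fall in lines with less MGMT. Of 13841 genes, 801 (5.79%) were called, 370 (2.67%) with a positive and 431 (3.11%) with a negative slope.

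Most of the damage targets had negative slopes. Of the 23 measured, 18 were called with a negative slope and 0 with a positive one (BAX, PHLDA3, PLK3, TP53INP1 and ZMAT3 were not called), and the median slope was -0.23 against 0.0049 for all genes. SESN1, a stress-induced inhibitor of growth signalling, had a slope of -0.54 ± 0.053 (SE, limma adjusted p = 5.70e-06). In line 4 SESN1 changed by 1.72, and in lines 9, 18, 19 and 20 by 0.96, 0.74, 0.62 and 0.054. In the 14 lines above 7 its change ran from -0.28 to 0.34 (median 0.0056). Only line 20 of the lines with less MGMT fell within that range. SESN1 had the steepest slope of the damage targets over these same lines, so this separation is no separate result.

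MDM2 had a slope of -0.43 ± 0.068 (limma adjusted p = 0.000785), with a change of 1.93 in line 4, 0.57 to 0.81 in lines 9, 18, 19 and 20, and 0.022 to 0.73 above 7. CDKN1A had a slope of -0.31 ± 0.088 (limma adjusted p = 0.0417). It changed by 1.29 in line 4 and 0.87 in line 9, but by -0.12 in line 20, and by up to 0.93 among lines above 7, so that its groups overlapped widely. For the other lists 0 of 10 direct reversal and base excision genes, 0 of 6 mismatch repair genes and 0 of 8 signalling genes were called by limma, with 1, 0 and 3 at an unadjusted p under 0.05. In the methylation list MBD1 had a positive slope (0.12) and TET2 a negative one (-0.19).

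Beyond the lists, the steepest negative slopes belonged to TNFSF4, a ligand of the TNF family, at -0.72 ± 0.081 (limma adjusted p = 3.01e-05), and SULF2, an extracellular sulfatase, at -0.71 ± 0.058 (limma adjusted p = 3.53e-07). SULF2 changed by 2.32 in line 4 and by 1.51, 1.13, 1.16 and 0.83 in lines 9, 18, 19 and 20. In the 14 lines above 7 its change ran from -0.15 to 0.78. The smallest change of the 5 lines, 0.83, thus lay close to the largest of the 14. SULF2 was picked for its slope over these same lines, so this separation is no separate result. KIAA1671 (-0.64), LCE1B (-0.61), GAL3ST4 (-0.58), FHL2 (-0.56) and GDF15 (-0.55), a secreted stress cytokine, followed. In TK6, SULF2 rose by 3.21 and TNFSF4 by 4.87. In MT1 SULF2 stood at 0.13, not called, and TNFSF4 rose by 0.80.

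The steepest positive slopes were those of SALL4, PRDM8, ARHGEF4, CER1, SLC24A2, AMZ1, TCL6 and RBFOX3. SALL4, a transcription factor of embryonic cells, had a slope of 1.79 ± 0.41 (limma adjusted p = 0.0119), and its change ran from -4.18 to 3.30 across lines. Changes of these genes spread widely within the lines above 7 as well: PRDM8 ran from -2.39 to 2.53 there. The brightness of the arrays moved too. In line 24, where SALL4 rose most, the median intensity went from 21.7 and 19.8 untreated to 46.9 after MNNG. In line 4, where SALL4 fell most, the median went from 50.6 and 45.3 to 38.2. In line 17, which had the next largest fall of SALL4 (-3.30), the median went from 44.1 and 44.0 to 16.0. In line 20 SALL4 changed by -1.11 while the median went from 37.6 and 46.1 to 43.5. Untreated medians ran from 37.6 to 54.5 in the 5 lines below 7 and from 16.0 to 52.6 in the 14 above, so brightness and MGMT level were not independent. The part of array brightness in these slopes was not tested, nor its part in the negative slopes, those of the damage targets and SULF2 included.

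These relations rested on the few lines with little MGMT, and on line 4 above all. The 19 lines fall into 14 with levels from 7.39 to 8.07 and 5 with levels from 5.12 to 6.77. Within the 14, limma called 0 genes, with 1624 at an unadjusted p under 0.05, and the 5 were not fitted alone. Without line 4, 19 genes were called and 1 damage target, SESN1 (-0.44, limma adjusted p = 0.00464). SULF2 (-0.65, limma adjusted p = 0.000348) and TNFSF4 (-0.62, limma adjusted p = 0.0149) were also called, whereas MDM2 (-0.25, limma adjusted p = 0.161) and CDKN1A (-0.19, limma adjusted p = 0.569) were not. None of the steepest positive slopes listed above was called without line 4, with SALL4 at 1.53 (limma adjusted p = 0.312). Without lines 4 and 9, the farthest from the median level, 3 genes were called and 0 damage targets, 8 of which had an unadjusted p under 0.05. The count was 456 on the values as deposited, 9 with the set-aside arrays included, 1213 without line 20, and 857 without line 14. It was 136 without replicate 1 of each group and 2 without replicate 2, but these leave out lines as well: 9 lines, line 20 among them, had replicate 1 as their only MNNG array kept, and 2, lines 4 and 17, had replicate 2.

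**Figure D3:**
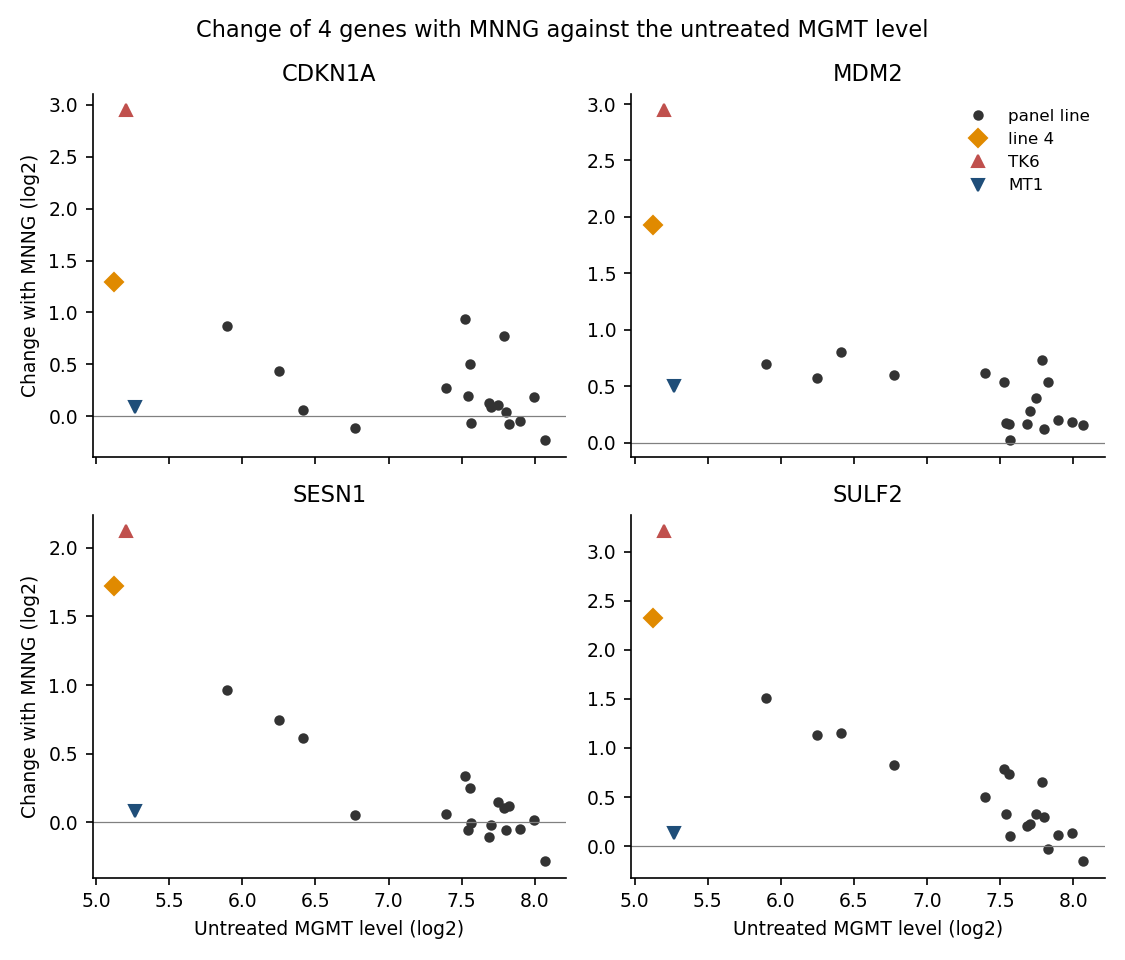
Change with MNNG (log2) of CDKN1A, MDM2, SESN1 and SULF2 against the untreated MGMT level (log2) in 19 panel lines, with line 4, TK6 and MT1 marked; TK6 and MT1 are not part of the fit. SESN1 and SULF2, picked for their slopes over these lines, rise most in line 4 and in the next lines by MGMT level. TK6 (3.21 for SULF2) and MT1 (0.13 for SULF2) stand far apart at nearly the same MGMT level.

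Over the untreated means of the 26 lines, the genes whose pattern was most like that of MGMT were found by Pearson correlation among 6198 genes that spanned at least 1 log2 unit. TK6 and MT1 share an origin and are not independent points, so values over the 24 panel lines are given too, and all are descriptions. GALNT18, which starts mucin-type glycosylation, had the highest correlation over 26 lines at 0.76 (0.69 over 24 lines), followed by IFI44L at 0.74 (0.62), PTPN6 at 0.73 (0.68), BCRP3 at 0.73 (0.73) and FBXO6 at 0.73 (0.61). Over the 24 panel lines BCRP3 lay above GALNT18. The candidates had 5th and 95th percentiles of -0.47 and 0.53. IFI44L, an interferon-induced gene, had a Spearman rho of 0.50 over the 26 lines, and FBXO6 one of 0.49. BCRP3, GALNT18 and PTPN6 had a rho of 0.73, 0.73 and 0.66.

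The most opposite patterns were those of MAGEF1 at -0.80 (-0.73 over 24 lines), NHSL1 at -0.79 (-0.71), PTGFRN at -0.78 (-0.68), PTPN13 at -0.77 (-0.74) and CPD at -0.77 (-0.69). Over the 24 lines PTPN13 was slightly more opposite than MAGEF1. By Spearman rho over the 26 lines PTPN13 was the least opposite of them, at -0.42. The others stood at -0.65 (MAGEF1), -0.70 (NHSL1), -0.57 (PTGFRN) and -0.71 (CPD). MAGEF1, a member of the MAGE family, was at 9.82 in TK6 and 9.79 in MT1, the 2 highest values of the 26 lines, and at 7.74 in the lowest panel line.

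**Figure D4:**
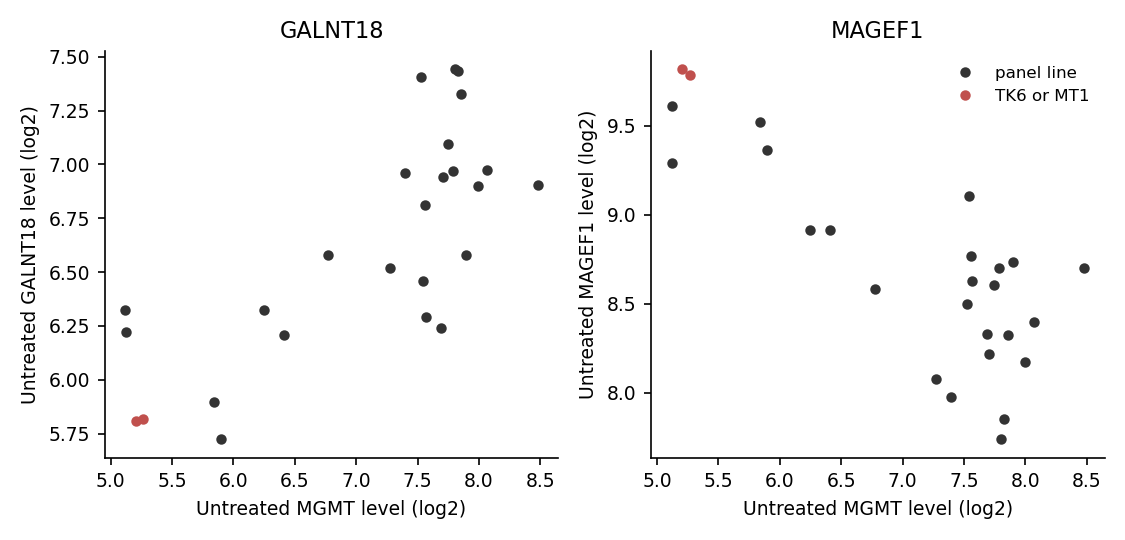
Untreated level (log2) of GALNT18 and MAGEF1 against that of MGMT in 24 panel lines (dark) and TK6 and MT1 (red); each point is a mean of 2 arrays. GALNT18 rises with MGMT (r = 0.76) and MAGEF1 falls (r = -0.80), with a wide scatter of both genes among the lines where MGMT lies above 7.

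The genes beside MGMT on chromosome 10 had weak correlations with it over the untreated lines. In the RefSeq order the nearest protein coding genes are PTPRE and MKI67 on the left and EBF3 and C10orf143 on the right. MKI67, a marker of proliferating cells, ran from 7.97 to 10.0 over the untreated lines (r with MGMT -0.069), and PTPRE, a tyrosine phosphatase, from 5.52 to 7.01 (r = 0.25). C10orf143 ran from 5.28 to 6.09 (r = 0.29), and EBF3, a transcription factor, from 5.48 to 5.95 (r = 0.13), so low that it did not pass the filter. TK6 and MT1 had MKI67 at 9.77 and 9.42, against a median of 9.33. After MNNG, MKI67 fell by 0.41 in the panel (limma adjusted p = 2.26e-07), C10orf143 rose by 0.21 (limma adjusted p = 0.000212) and PTPRE by 0.11 (limma adjusted p = 0.0081).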

How the data were processed

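Total RNA was measured on oligonucleotide arrays of 54675 probe sets. The deposited values are linear intensities made with PLIER by the authors, per the submitters' processing notes; the sources used here do not state its settings. Intensities plus a pseudocount of 16 were log2 transformed and quantile normalised over the 82 kept arrays. Probe sets were named by the platform annotation (41097 with 1 symbol, 1801 with several, 11777 with none). The brightest probe set stood for each gene, and after dropping the dimmest 30% of genes 13842 remained. Models were fitted in limma 3.58.1 (R 4.3.3) with a trended prior and Benjamini-Hochberg adjustment, calling at 0.05: 1 mean per line and condition for levels, TK6 and MT1, and line means with the line as a block for the panel. The fits were tested on simulated data. MGMT, the lists and the rules were chosen with earlier results of these data known. Named genes were, per list, up to 4 called genes with the largest change, the 8 steepest called slopes each way, the 5 most and least alike, and 2 neighbours each side, of which the text picks some; CDKN1A was added after its values were seen. Of 9 lines with 2 MNNG arrays, arrays with the same replicate number deviated together with r from -0.62 to 0.14, so numbers were not taken to pair samples. Alternatives were other pseudocounts, normalisations and filters, probe set means, no trend, a replicate block, all arrays, and leaving out replicates or lines. Some listed genes were not analysed here.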

Additional observations from a re-analysis of the deposited data

Results flagged for a closer look

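Among the MNNG arrays set aside, which enter only the alternative with all arrays, MGMT intensity in 4 lay above both untreated arrays of the line. All 4 belong to lines at the lower end of the scale, where a reading slightly above the floor is enough. The intensities compared here are not normalised, and the share of other genes with this pattern was not computed. It was 77.2 in line 4 replicate 1, against 26.2 in the higher untreated array. It was 21.4 and 26.6 in line 6 replicates 1 and 2, against 20.1, and 20.0 in MT1 replicate 1, against 19.1. Over all 22 set-aside arrays MGMT intensity ran from 17.0 to 77.2 (median 19.7), and the medians of the arrays from 22.0 to 54.7. Lines with much MGMT read low in them too, such as line 16 at 24.3 in replicate 1, against 297.0 in its lower untreated array.

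The responses of TK6 and MT1, with MGMT near the floor in both, differed by limma's test for 21 of the 23 damage targets measured. In the same comparison 24.7% of all genes were called. MT1 had 1 MNNG array, which was assumed to vary like the other groups.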

How the results depend on the processing

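MGMT differed between untreated lines under all 38 alternatives (range 2.29 to 4.12 log2 units). Not every alternative could move the MGMT values: other filters, probe set means and no trend left them as they were, since MGMT has 1 probe set. Many others, here and for the panel rise, left out 1 line each. The panel rise kept its direction and its call under 32 of 33; with all arrays it was -0.45. With a replicate block it was 0.34 (limma adjusted p = 0.000226), and it changed no MGMT call for TK6, MT1, their difference or untreated MT1 minus TK6; the tests across lines were not run with it. On values as deposited TK6 turned to 0.036, MT1 to 0.17 and their difference to -0.13, near the floor in each. The difference in MGMT response between lines was not called at first. It was called with a pseudocount of 1 (range 1.49) and without 2 arrays of line 14 (range 1.04). In the other 28 alternatives it was not called. Among these were line 14 left out of the F test (adjusted p = 0.347), line 20 left out (0.207) and values as deposited (0.923). In F tests across lines with 1 line left out, its arrays still entered the residual spread. The count of slopes on MGMT, 801, was 456 on values as deposited, 9 with all arrays, 2 to 136 without 1 replicate (which drops 2 to 9 lines as well), 19 without line 4, 1213 without line 20, 518 with the level from duplicate 2 and the response from duplicate 1, and, in alternatives chosen after seeing the data, 0 in lines above 7 and 10 without lines 4 and 14. It was 3 without the 2 farthest lines. The 18 damage targets with negative slopes became 5 as deposited, 0 with all arrays, and 0 and 10 without 1 replicate. Slopes that turned sign were those of TCL6 (-0.0038 median-centred, -0.15 with all arrays, -0.66 above 7), RBFOX3 (-0.52) and GADD45A (0.24) with all arrays, CER1 (-0.022 to 0.59) and AMZ1 (-0.031 to 0.71) without 1 replicate, and LCE1B (0.0087), GAL3ST4 (0.068), FHL2 (0.086), GDF15 (0.099) and TP53I3 (0.035) above 7. The cause of these changes was not tested. On values as deposited the genes called were 99 in MT1 (493 before) and 1294 for TK6 minus MT1 (3415 before), and with all arrays 9685 in the panel (5892 before).

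Signal over background limits MGMT in TK6, MT1 and lines 4 and 6, where falls cannot be seen. Of the 19 lines 11 had 1 MNNG array. Dose, time and killing are not analysed here.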
